A study of Mus musculus with 18 samples.

Results

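The genes described here encode matricellular and matrix remodelling proteins: Ccn1, Ccn2, Thbs1, Thbs4, Postn, Spp1, Timp1, Fn1 and Tnc. They were chosen by name, as the probe sets whose single gene symbol in the array annotation was one of these 9. Earlier results of these data were known at that choice. Each of 8 genes had 1 probe set, among the 18781 genes that had a single-symbol probe set. No probe set carried Spp1 as its only symbol, and that gene was not analysed here.

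Matricellular proteins are secreted into the extracellular matrix, where they act on cell surface receptors and growth factors more than they bear load. Many of them are held at low levels in resting adult tissue and are induced by injury, stretch or growth factors such as TGF-beta. The CCN proteins and thrombospondins bind integrins and other receptors, periostin and tenascin-C mark remodelling tissue, fibronectin is the fibre on which much of the matrix is assembled, and TIMP1 inhibits the metalloproteinases that break matrix down. In heart and skeletal muscle their main sources include fibroblasts and vascular cells, although muscle cells can express several of them, and in brain thrombospondins and tenascin-C are known as products of glia.

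Total RNA of skeletal muscle, heart muscle and hippocampus had been hybridised to 18 Affymetrix arrays in 6 groups of 3. In each tissue, mice with a transgene for TN-XXL, a fluorescent calcium indicator built around a calcium-binding domain of troponin C, were compared with wild type littermates, all of the C57BL/6 strain. The labels mark the transgenic samples as +/+; they state neither the promoter of the transgene, the number of founder lines or the age, nor which muscle or heart chamber was taken. The labels do not say whether the arrays of a group came from separate animals, so each p-value is set against the spread of these arrays only, which may be technical, and the number of arrays limits the precision. All values are RMA levels on the log2 scale, on which a step of 1 is a doubling, and errors of group means are SDs with n = 3. Genotype differences are transgenic minus wild type with the SE of a limma model fitted to all 18 arrays. A gene is called, and is said to have risen or fallen, where its Benjamini-Hochberg adjusted p over all 35382 probe sets was under 0.05. In bulk tissue, fewer cells of a type and less RNA per cell cannot be told apart.

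The tissues carried their defining markers: the 5 measured skeletal muscle markers, the 4 heart markers and the 4 markers of hippocampal neurons each lay above the array median in their own tissue. Arrays of the same group correlated at 0.982 to 0.993. The median of all probe sets was 2.44 to 2.49 on the muscle arrays, 2.61 to 2.63 on the heart arrays and 3.68 to 3.71 on the hippocampus arrays. Against these medians Fn1, Ccn2 and Thbs4 lay above on every array. Timp1 lay below in skeletal muscle and hippocampus, Postn below in hippocampus, and Tnc below or near it in skeletal muscle and heart, so the sizes of differences in those tissues are those of dim probe sets.

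**Figure D1:**
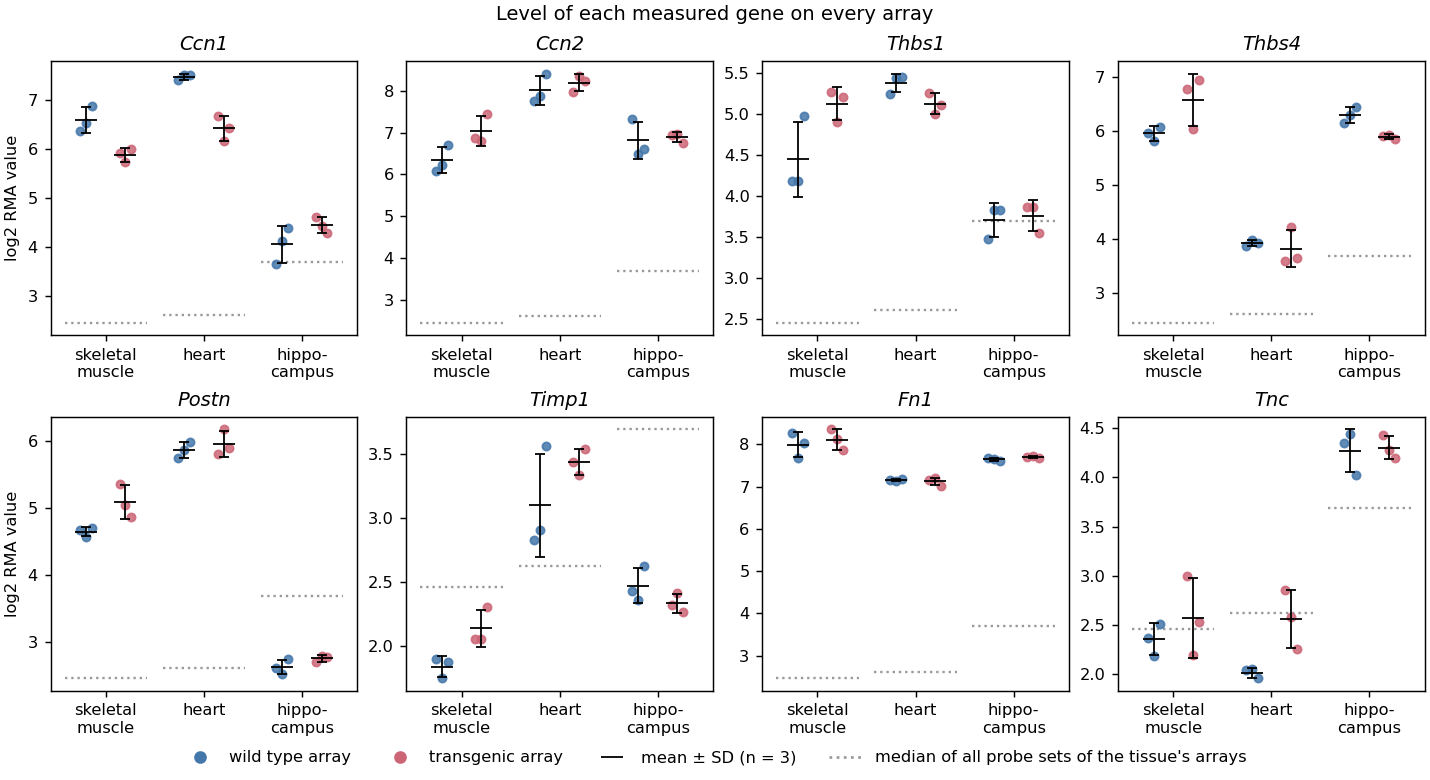
Log2 RMA value (vertical axis) of the 8 measured genes on each of the 18 arrays, by tissue (horizontal axis). Blue points are wild type and red points transgenic arrays, black bars show the mean ± SD (n = 3), and dotted lines the median of all probe sets on the tissue's arrays; Ccn1 stood apart between the genotypes in skeletal muscle and heart, and its 6 hippocampus arrays overlapped.

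In skeletal muscle, Ccn1 was lower and Thbs1 and Postn were higher in transgenic than in wild type arrays. These were 3 of the 8 genes, where 8.15% of all probe sets were called in this tissue; 1 fell and 2 rose, beside 4.3% of all probe sets called lower and 3.86% called higher. The median difference of the 8 genes was 0.37, beside 0.016 for all probe sets, and 7 of the 8 differences were positive. As the genes were chosen with earlier results known, these shares and medians are a description and do not test the set. The groups did not overlap for 4 genes, Ccn1, Ccn2, Postn and Timp1, beside 21.9% of all probe sets (11.6% higher and 10.3% lower). In heart, Ccn1 fell, the only call among the 8 genes, where 3.19% of all probe sets were called (1.57% higher and 1.62% lower). At an unadjusted p under 0.05 there were 5 of the 8 genes in skeletal muscle, beside 19.1% of all probe sets, and 3 in heart, beside 15%. The median difference of all 8 genes in heart was 0.03, beside 0.0031 for all probe sets.

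Ccn1 encodes CYR61, a secreted protein that binds integrins and is an immediate early product of growth factor and stretch signals. In skeletal muscle it stood at 6.37, 6.53 and 6.88 on the wild type arrays and at 5.92, 5.73 and 6.00 on the transgenic arrays. Every transgenic array was lower than every wild type array, and the level fell by 0.71 ± 0.18 (SE, 1.63-fold lower, adjusted p = 0.0220). In heart the wild type arrays read 7.41, 7.52 and 7.52 and the transgenic arrays 6.68, 6.17 and 6.43. The groups again did not overlap, and the difference was −1.05 ± 0.18 (2.08-fold lower, adjusted p = 0.00432). The muscle call ended without wild type array 3 (adjusted p = 0.105) or transgenic array 2 (0.0850), and in a fit of the muscle arrays alone (0.0804). The heart call held without any 1 heart array (adjusted p = 0.00515 to 0.0249) but ended in a fit of the heart arrays alone (0.0670).

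In hippocampus Ccn1 was 3.65, 4.13 and 4.39 on the wild type arrays and 4.62, 4.43 and 4.29 on the transgenic arrays. These overlapped, close to the array median, and the difference of 0.39 ± 0.18 did not pass (adjusted p = 0.986). The interaction of genotype and tissue, a moderated F test of whether the genotype difference varied over the 3 tissues, passed for Ccn1 (F = 17.8, adjusted p = 0.00798) and for none of the other 7 genes (adjusted p = 0.105 to 0.889), beside 3.89% of all probe sets. Between pairs of tissues, the Ccn1 difference in hippocampus exceeded that in skeletal muscle by 1.10 ± 0.25 (adjusted p = 0.0253, 3.4% of probe sets called) and that in heart by 1.45 ± 0.25 (adjusted p = 0.0176, 0.582% of probe sets called). Between heart and skeletal muscle the difference was −0.35 ± 0.25 and did not pass (adjusted p = 0.601).

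The sequences upstream of the start of Ccn1 and of Postn are shown because these are the called genes for which the RefSeq promoter table (GRCm38.p6) held an entry; it held at least 1 for 6 of the 9 listed genes. Both runs are the 250 bases before the start, written 5′ to 3′ on the strand of the gene, with matches to the searched motifs in capitals. For Postn the window of the more downstream of its listed starts is given.
Ccn1, chr3:145649986-145650235, minus strand: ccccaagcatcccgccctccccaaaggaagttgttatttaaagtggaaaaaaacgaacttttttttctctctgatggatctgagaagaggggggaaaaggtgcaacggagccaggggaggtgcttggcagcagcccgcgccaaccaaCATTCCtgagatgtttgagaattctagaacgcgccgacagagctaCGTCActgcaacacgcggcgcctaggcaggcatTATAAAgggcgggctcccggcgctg
Postn, chr3:54360857-54361106, plus strand: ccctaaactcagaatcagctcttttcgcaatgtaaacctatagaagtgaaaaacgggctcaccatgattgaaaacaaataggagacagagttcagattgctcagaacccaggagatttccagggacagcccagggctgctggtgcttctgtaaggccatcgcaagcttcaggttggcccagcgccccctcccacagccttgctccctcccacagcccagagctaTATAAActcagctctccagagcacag

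The search covered both strands for CATTCC (the core bound by TEAD factors), the CArG box (bound by SRF), CACGTG (an E-box), CGTCA (the core of the cAMP response element), TGANTCA (the AP-1 site) and TATAAA (the TATA box), with none of the matches above overlapping another. In Ccn1, CATTCC lay 103 to 98 bases before the start, CGTCA 58 to 54 bases and TATAAA 25 to 20 bases before it. In the Postn window shown only TATAAA was found, 26 to 21 bases before the start. The window of the other listed Postn start held no match to any of the motifs. Of all 32851 windows of the same length, 12.6% held CATTCC, 17.8% CGTCA, 12.4% TATAAA, 6.75% TGANTCA, 6.02% CACGTG and 1.47% the CArG box.

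Ccn2, also called CTGF, is the other CCN gene of the group and shares with Ccn1 its induction by TGF-beta and by YAP. Its muscle arrays read 6.09, 6.23 and 6.70 in wild type and 6.87, 6.80 and 7.45 in transgenic mice. The transgenic arrays all lay above the wild type arrays, at a difference of 0.70 ± 0.24, but it was not called (adjusted p = 0.0979). In heart it stood at 7.75, 7.88 and 8.41 in wild type and 7.96, 8.36 and 8.24 in transgenic arrays (0.17 ± 0.24, adjusted p = 0.825), and in hippocampus at 6.81 ± 0.44 and 6.89 ± 0.11 (adjusted p = 1.00). Groups overlapped in both of these tissues.

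Thbs1 encodes thrombospondin-1, which inhibits vessel growth and activates latent TGF-beta. It was 4.18, 4.19 and 4.98 on the wild type muscle arrays and 5.27, 4.90 and 5.21 on the transgenic muscle arrays. Wild type array 3 lay above transgenic array 2, so the groups overlapped, and the rise was 0.68 ± 0.19 (1.60-fold, adjusted p = 0.0359). Without wild type array 3 the rise was 0.94 (adjusted p = 0.00110), but on omitting wild type array 1 or 2 (adjusted p = 0.149 and 0.152), or transgenic array 1 or 3 (0.114 and 0.109), the call was lost, as it was in a fit of the muscle arrays alone (0.242). In heart Thbs1 read 5.25, 5.45 and 5.45 in wild type and 5.256, 5.001 and 5.116 in transgenic arrays (−0.26 ± 0.19, adjusted p = 0.596). The difference of the heart and muscle effects was −0.94 ± 0.26 and did not pass (adjusted p = 0.0841, beside 2.55% of probe sets called). In hippocampus its levels were 3.71 ± 0.21 and 3.76 ± 0.19, near the array median.

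Thbs4 encodes thrombospondin-4, which is abundant in tendon and muscle and helps to organise their matrix. Its muscle arrays read 5.97, 5.81 and 6.08 in wild type and 6.77, 6.03 and 6.93 in transgenic mice. Transgenic array 2 lay among the wild type arrays, and the difference of 0.63 ± 0.20 was not called (adjusted p = 0.0672). Without that array it was 0.90 (adjusted p = 0.00252), and it did not pass on omitting any other muscle array (0.0957 to 0.252). In heart the levels were 3.93 ± 0.05 and 3.83 ± 0.35 (adjusted p = 0.883). In hippocampus the wild type arrays read 6.15, 6.30 and 6.43 and the transgenic arrays 5.91, 5.93 and 5.85. All transgenic arrays were lower there, by 0.40 ± 0.20 in the mean, without passing (adjusted p = 1.00).

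Postn encodes periostin, a product of activated fibroblasts that promotes collagen cross-linking. In skeletal muscle it stood at 4.67, 4.57 and 4.69 on the wild type arrays and 5.36, 5.04 and 4.87 on the transgenic arrays. The groups did not overlap, and the rise was 0.44 ± 0.12 (1.36-fold, adjusted p = 0.0344). On omitting wild type array 1, 2 or 3 (adjusted p = 0.0730, 0.116 and 0.0647) or transgenic array 1 or 2 (0.139 and 0.0636) the call was lost, as it was in a fit of the muscle arrays alone (0.193). In heart it was 5.74, 5.87 and 5.97 in wild type and 5.80, 6.17 and 5.89 in transgenic arrays, which overlapped (0.09 ± 0.12, adjusted p = 0.818), and in hippocampus 2.63 ± 0.11 and 2.76 ± 0.05.

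Timp1, the metalloproteinase inhibitor gene, read 1.89, 1.75 and 1.87 in wild type and 2.05, 2.05 and 2.30 in transgenic muscle arrays. These did not overlap, all below the array median, at a difference of 0.30 ± 0.15 (adjusted p = 0.316). In heart the wild type arrays stood at 2.83, 2.90 and 3.56 and the transgenic arrays at 3.43, 3.33 and 3.53 (0.34 ± 0.15, adjusted p = 0.307). Wild type array 3 was the highest of the 6, and without it the difference was 0.57 (adjusted p = 0.0119). It did not pass on omitting any other heart array (adjusted p = 0.334 to 0.662). Fn1, the fibronectin gene, was 7.98 ± 0.29 in wild type and 8.11 ± 0.25 in transgenic muscle (adjusted p = 0.690), 7.15 ± 0.02 and 7.12 ± 0.09 in heart (0.956), and 7.64 ± 0.03 and 7.70 ± 0.03 in hippocampus (1.00). Tnc, which encodes tenascin-C, read 2.04, 2.05 and 1.96 in wild type and 2.85, 2.58 and 2.25 in transgenic heart. The transgenic arrays were all higher, near the array median, at 0.55 ± 0.19 (adjusted p = 0.145). Its muscle arrays overlapped (2.36 ± 0.16 and 2.57 ± 0.41), as did those of hippocampus (4.27 ± 0.22 and 4.30 ± 0.12).

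**Figure D2:**
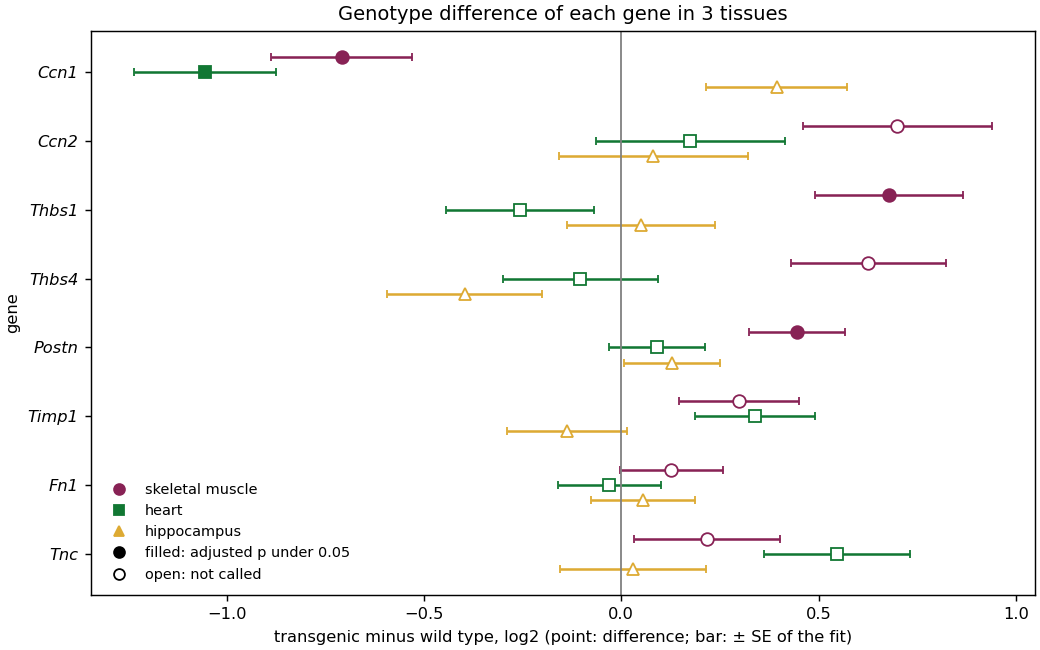
Transgenic minus wild type difference on the log2 scale (horizontal axis) for each gene (vertical axis) in skeletal muscle (circles), heart (squares) and hippocampus (triangles), with ± 1 SE of the fit (n = 3 arrays in each group); filled symbols passed at an adjusted p under 0.05. The filled symbols are Ccn1, Thbs1 and Postn in skeletal muscle and Ccn1 in heart.

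None of the 8 genes was called in hippocampus by limma, where 0% of all probe sets passed. At an unadjusted p under 0.05 there was 1 of the 8, Ccn1, beside 5.04% of all probe sets. Only Thbs4 had groups that did not overlap there, beside 13.3% of all probe sets (7.37% lower and 5.95% higher). In heart 2 genes had such groups, Ccn1 lower and Tnc higher, beside 18.5% (9.35% lower and 9.19% higher). When only the arrays of a tissue entered the fit, 0 of the 8 genes were called in skeletal muscle and 0 in heart by limma, beside 2.37% and 0.102% of all probe sets, with 6 and 2 at an unadjusted p under 0.05, beside 15.3% and 12% of all probe sets.

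The genes around these in the matrix were read from 7 lists, also chosen with earlier results of these data known. The median difference of a list lay between −0.14 (TGF-beta signalling and the Hippo pathway) and 0.19 (other matricellular genes) in skeletal muscle, and between −0.13 and 0.08 in heart, beside 0.016 and 0.0031 for all probe sets. Of the 7 other CCN and thrombospondin genes, 0 passed in skeletal muscle and 0 in heart. At an unadjusted p under 0.05 there were 0 in skeletal muscle, beside 19.1% of all probe sets, and 3 in heart, beside 15%. Of 14 other matricellular genes, 2 rose in skeletal muscle, the related calcium-binding SMOC genes Smoc1 (0.66 ± 0.14, adjusted p = 0.00637) and Smoc2 (0.47 ± 0.12, adjusted p = 0.0310), where 3.86% of all probe sets were called higher. The call on Smoc2 was lost on omitting any muscle array other than wild type array 1 (adjusted p up to 0.134). Smoc1 was dim, at 2.44 in wild type and 3.10 in transgenic muscle, beside muscle array medians of 2.44 to 2.49.

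Of 20 genes of metalloproteinases, their inhibitors and other matrix proteases, 3 rose in skeletal muscle and 0 fell, beside 3.86% of all probe sets called higher and 4.3% lower. The proteoglycan-cleaving proteases Adamts5 and Adamts1 rose by 1.06 ± 0.12 (adjusted p = 5.31e-05) and 0.61 ± 0.14 (0.0120), and Timp3, a matrix-bound inhibitor, by 0.49 ± 0.12 (0.0209). The call on Adamts1 ended without transgenic array 2 (0.0567), and that on Timp3 when wild type array 2, or either transgenic array 1 or array 3, was omitted (up to 0.103). In heart 2 fell, where 1.62% of all probe sets were called lower: the metalloprotease gene Adam19 from 7.36 ± 0.17 to 5.46 ± 0.51 (−1.90 ± 0.22, adjusted p = 2.89e-04) and Adamts4 by 0.81 ± 0.13 (0.00258). Adamts4 was dim, at 2.76 in wild type and 1.95 in transgenic heart, beside heart array medians of 2.61 to 2.63. Of 21 integrins and other matrix receptors, 1 rose and 2 fell in skeletal muscle, where 3.86% of all probe sets were called higher and 4.3% lower. Itgb5, which encodes an integrin beta chain that pairs with alpha v, fell by 0.52 ± 0.07 (adjusted p = 3.27e-04). The heparan sulphate receptor gene Sdc4 fell by 0.50 ± 0.11 (0.0115), and Itgb6 rose by 0.57 ± 0.16 (0.0333). In heart Sdc4 rose by 0.53 ± 0.11 (0.0195), the only call of that list, beside 1.57% of all probe sets called higher. The calls on Sdc4 were lost on omitting array 2 of either genotype in skeletal muscle (up to 0.0609), and either wild type array 2 or transgenic array 1 in heart (up to 0.0744). That on Itgb6 held only without wild type array 1 (up to 0.128 without 1 of the others).

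Among 16 genes of TGF-beta signalling, 3 fell and 0 rose in skeletal muscle, where 4.3% of all probe sets were called lower. The signal transducer Smad3 fell from 7.65 ± 0.14 to 6.46 ± 0.17 (−1.19 ± 0.10, adjusted p = 2.50e-06), the latent TGF-beta binding protein gene Ltbp3 from 6.69 ± 0.11 to 5.29 ± 0.09 (−1.40 ± 0.13, 5.98e-06), and the receptor gene Tgfbr1 by 0.77 ± 0.08 (2.77e-05). All 3 passed in a fit of the muscle arrays alone (adjusted p = 0.0110, 0.00359 and 0.0169). In heart the ligand gene Tgfb3 rose (0.34 ± 0.08, adjusted p = 0.0387), 1 of the 16 beside 1.57% of all probe sets called higher. That call ended without any 1 heart array (0.0511 to 0.149). Of 18 genes of the Hippo pathway and its targets, Amotl1, a binding partner of YAP, and the transcription factor gene Tead4 fell in skeletal muscle (−0.58 ± 0.09 and −0.55 ± 0.10, adjusted p = 8.23e-04 and 0.00335), 2 of the 18 beside 4.3% of all probe sets called lower. Tead1 fell in heart (−0.32 ± 0.08, 0.0336), 1 of the 18 beside 1.62% of all probe sets called lower. That call held only without wild type array 1 (up to 0.130 without 1 of the others). Of 15 genes around the transcription factor SRF, the early response genes Egr1, Junb and Egr3 rose in skeletal muscle (1.03 ± 0.20, 0.50 ± 0.10 and 0.35 ± 0.10, adjusted p = 0.00344, 0.00327 and 0.0337), 3 of the 15 beside 3.86% of all probe sets called higher. Junb (2.59 in wild type, 3.10 in transgenic) and Egr3 (2.24 and 2.59) were dim, beside muscle array medians of 2.44 to 2.49. In heart Srf fell (−0.43 ± 0.10, 0.0315) and its cofactor gene Mrtfb rose (0.41 ± 0.09, 0.0305), beside 1.62% of all probe sets called lower and 1.57% higher. The call on Egr3 ended without wild type array 3 or any transgenic array in muscle (up to 0.149), that on Srf without any 1 heart array (up to 0.0996), and that on Mrtfb held only without transgenic array 2 (up to 0.117 without 1 of the others). Of the 16 genes of the 7 lists called in skeletal muscle, 5 also passed in a fit of the muscle arrays alone (Smad3, Ltbp3, Tgfbr1, Adamts5 at 0.0220 and Amotl1 at 0.0252), and the other 11 did not (adjusted p = 0.0605 to 0.197). None of the 7 called in heart, Adam19 (0.0670) and Adamts4 (0.119) included, passed in a fit of the heart arrays alone (0.0670 to 0.241). In hippocampus limma called 0 of the 111 genes of these lists. At an unadjusted p under 0.05 there were 11, beside 5.04% of all probe sets, and 6 of them were among the 15 genes around SRF. The 4 of those with the smallest p, Fosb, Junb, Egr1 and Egr2, were all higher in transgenic arrays (0.43, 0.44, 0.72 and 0.89). In heart Egr1 differed the other way (−0.64 ± 0.20) and was not called by limma (adjusted p = 0.104).

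**Figure D3:**
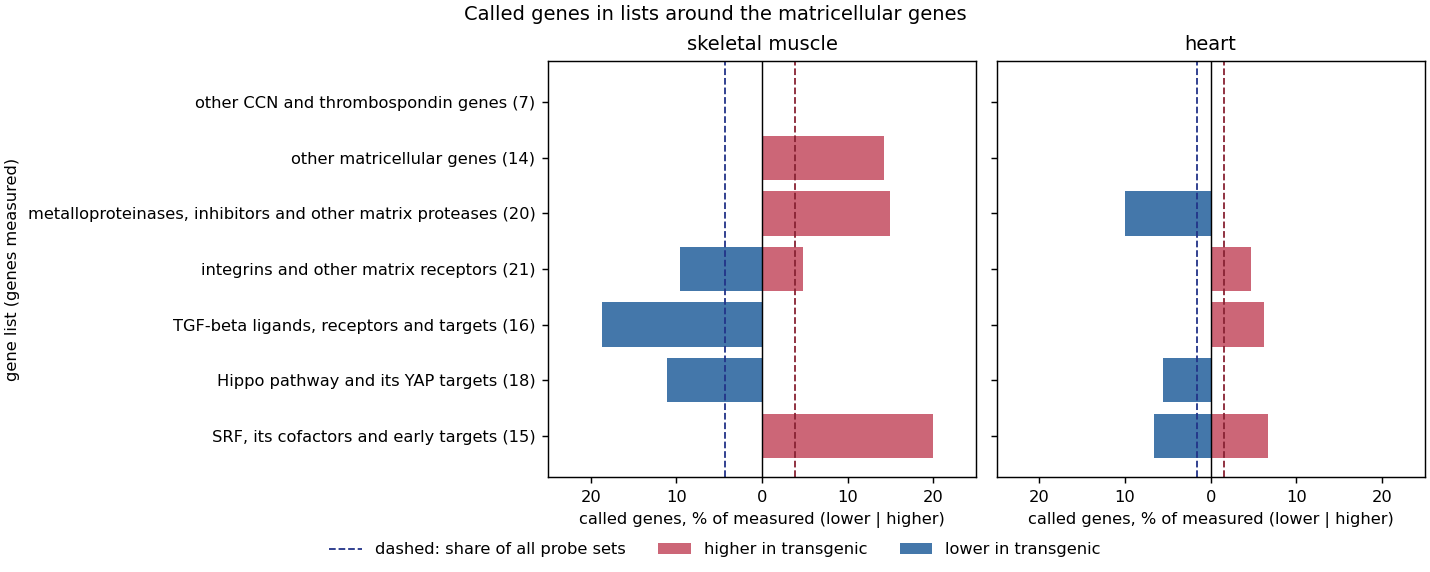
Share of the measured genes of each list (vertical axis, number measured in parentheses) that was called higher (red, to the right) or lower (blue, to the left) in transgenic skeletal muscle and heart, in percent (horizontal axis); dashed lines mark the share of all probe sets called in that direction. In skeletal muscle the called genes of TGF-beta signalling were all lower (3 of 16) and those of the matrix proteases all higher (3 of 20).

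Markers of cells that make these proteins were measured beside them. None of 6 fibroblast markers was called in skeletal muscle or heart by limma (2 and 0 at an unadjusted p under 0.05, beside 19.1% and 15% of all probe sets). The log2 of their summed linear signal was 10.15 to 10.49 in wild type and 10.15 to 10.45 in transgenic muscle, and 10.52 to 10.63 and 10.48 to 10.71 in heart. Of 5 endothelial markers, 3 fell in skeletal muscle, where the sum was 9.16 to 9.32 in wild type and 8.67 to 9.07 in transgenic arrays, and 2 fell in heart (10.11 to 10.21 and 9.63 to 9.90), beside 4.3% and 1.62% of all probe sets called lower. The endothelial sums did not overlap in either tissue, where 21.9% and 18.5% of all probe sets did not overlap. Other marker sums also stood apart, among them smooth muscle and pericytes in heart (10.25 to 10.29 in wild type, 10.33 to 10.41 in transgenic). In hippocampus the endothelial sums overlapped (8.77 to 8.99 and 8.42 to 8.89). The part of the endothelial markers in the Ccn1 result was not tested. The endothelial calls were Tek in skeletal muscle (−0.72 ± 0.11, adjusted p = 4.92e-04) and heart (−0.48 ± 0.11, 0.0259), Cldn5 in both (−0.85 ± 0.24 and −0.97 ± 0.24, 0.0375 and 0.0382) and Emcn in skeletal muscle (−0.49 ± 0.13, 0.0356). Only that on Tek in skeletal muscle held without any 1 array of its tissue; each of the others ended without at least 4 of the 6. It was also the only endothelial call to pass in a fit of its tissue alone (0.0314).

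Of 5 macrophage markers, 1 rose in skeletal muscle, beside 3.86% of all probe sets called higher: Cd68 (0.93 ± 0.16, adjusted p = 0.00165, but 0.0730 in a fit of the muscle arrays alone). The sum of the 5 was 6.72 to 7.49 in wild type and 7.49 to 8.02 in transgenic arrays. The part of these markers in the rise of Postn and Thbs1 was not tested. The sum of 5 tenocyte markers was 4.999 to 5.544 in wild type and 5.118 to 6.957 in transgenic muscle. In that tissue 0 were called by limma, with 4 at an unadjusted p under 0.05, beside 19.1% of all probe sets. Of these 4, Mkx, Fmod and Tnmd were higher (0.51 ± 0.17, 1.17 ± 0.52 and 0.41 ± 0.18) and Scx lower (−0.41 ± 0.14). Mkx (1.90 in wild type, 2.42 in transgenic) and Tnmd (2.40 and 2.81) were dim, beside muscle array medians of 2.44 to 2.49. In heart 1 fell, beside 1.62% of all probe sets: Scx, a transcription factor of tendon (−0.90 ± 0.14, adjusted p = 0.00230, but 0.0795 in a fit of the heart arrays alone). Mkx went the other way there (0.40 ± 0.17) and was not called (adjusted p = 0.259). It was dim, at 2.22 in wild type and 2.62 in transgenic heart, beside heart array medians of 2.61 to 2.63. None of 6 smooth muscle and pericyte markers and none of 4 platelet markers was called by limma in skeletal muscle or heart. At an unadjusted p under 0.05 there were 1 and 0 in skeletal muscle, beside 19.1% of all probe sets, and 1 and 0 in heart, beside 15%. In the lists of markers of other tissues, the heart gene Myl2 rose in skeletal muscle (0.57, adjusted p = 0.0447, 1 of 4), beside 3.86% of all probe sets called higher. The neuronal gene Camk2a (−0.48, 0.0121, 1 of 4), the astrocyte gene Aldh1l1 (−0.50, 0.0189, 1 of 4) and the choroid plexus gene Kl (−0.39, 0.0337, 1 of 4) fell there, beside 4.3% called lower. Kl lay below the muscle array medians in both genotypes (2.25 in wild type and 1.86 in transgenic). Each of these calls was lost on omitting at least 1 muscle array, and that on Myl2 held only without transgenic array 3.

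The genes whose deviations from their tissue means followed those of the called genes most closely over the 18 arrays were named by a fixed rule and are a description; the arrays of a genotype share the genotype difference itself. For Ccn1 they were Lrg1 (r = 0.90), Lratd2 (0.89) and Bmp6 (0.89). Lrg1, a secreted glycoprotein gene, fell in heart (−0.75, adjusted p = 0.00934), Lratd2 fell in heart and skeletal muscle (−0.55 and −0.45, adjusted p = 0.00641 and 0.00959), and Bmp6, a ligand of the TGF-beta family, fell in skeletal muscle (−0.51, adjusted p = 0.00213). For Thbs1 they were Cyba (0.86), Lmcd1 (0.86) and the probe set annotated as Mir675 (0.83), and for Postn they were Ctss (0.89), Srr (0.87) and Fez1 (0.86). All of these 6 rose in skeletal muscle, Cyba by 0.54, Lmcd1 by 0.88, Mir675 by 2.59, Ctss by 0.84, Srr by 0.51 and Fez1 by 0.55 (adjusted p = 0.0441, 0.00449, 4.06e-06, 0.0111, 0.00155 and 0.00459). The call on Cyba was lost on omitting array 1 or 2 of either genotype (up to 0.187). In a fit of the muscle arrays alone the call on Mir675 held (adjusted p = 0.0169). Every other call on the genes named by that rule was lost in a fit of its tissue alone (0.0508 for Srr to 0.228 for Cyba). Among the called genes themselves, the deviations of Thbs1 and Postn correlated at 0.50, those of Ccn1 and Postn at −0.43 and those of Ccn1 and Thbs1 at 0.12.

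Levels were also compared between the tissues of wild type mice. The array medians lay 0.17 higher in heart and 1.26 higher in hippocampus than in skeletal muscle, and 1.09 higher in hippocampus than in heart. Of the calls over all probe sets, 66.1% were higher in heart than in skeletal muscle (44% with each array's median subtracted), 89.6% higher in hippocampus than in skeletal muscle (26.4%) and 87.7% higher in hippocampus than in heart (26%). Differences between tissues are therefore given relative to the array medians, with the value as deposited where its sign was the opposite or its size differed by over 1.5 times. As deposited, 7 of the 8 genes were called between heart and skeletal muscle, 6 between hippocampus and skeletal muscle and 8 between hippocampus and heart, where 38.7%, 78.2% and 76.8% of all probe sets were called. A call between tissues was thus common among probe sets of any kind.

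Ccn1, Thbs1 and Postn were ordered heart, skeletal muscle, hippocampus, and each neighbouring pair of tissues differed beyond the spread of its arrays. Whether the same RMA run covered all tissues is not stated. A difference in processing between tissues would not show in that spread or in the p-values of limma. Ccn1 stood at 7.48 ± 0.07 in heart, 6.59 ± 0.26 in skeletal muscle and 4.06 ± 0.37 in hippocampus, with heart 0.71 ± 0.18 above skeletal muscle (adjusted p = 0.00454) and hippocampus 3.80 ± 0.18 lower than skeletal muscle on the median-subtracted scale (difference −3.80, adjusted p = 2.13e-11). Thbs1 stood at 5.38 ± 0.11, 4.45 ± 0.46 and 3.71 ± 0.21, with heart 0.76 ± 0.19 above skeletal muscle (0.00415) and a hippocampus minus skeletal muscle difference of −1.99 ± 0.19 (1.21e-07), which was −0.73 as deposited. Postn stood at 5.86 ± 0.12, 4.64 ± 0.07 and 2.63 ± 0.11, at 1.04 ± 0.12 (4.87e-06) and −3.27 ± 0.12 (1.15e-12), the latter −2.01 as deposited. Ccn2 was also highest in heart (8.01 ± 0.35), above skeletal muscle (6.34 ± 0.32) by 1.5 ± 0.24 (1.22e-04). Its hippocampus level (6.81 ± 0.44) was below skeletal muscle relative to the medians (−0.79 ± 0.24, 0.00761) but 0.47 above it as deposited, so this pair has no settled order. Timp1 was highest in heart too (3.10 ± 0.40, against 1.84 ± 0.08 in skeletal muscle and 2.47 ± 0.14 in hippocampus). The order of its lower pair turned with the scaling: hippocampus minus skeletal muscle was −0.63 ± 0.15 with medians subtracted, 0.63 as deposited and 0.03 after quantile normalization.

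The other genes were not highest in heart. Thbs4 stood at 5.95 ± 0.13 in skeletal muscle, 6.29 ± 0.14 in hippocampus and 3.93 ± 0.05 in heart, with heart minus skeletal muscle at −2.19 ± 0.20 (adjusted p = 3.13e-07) and hippocampus minus heart at 1.27 ± 0.20 (3.89e-05), the latter 2.36 as deposited. Skeletal muscle and hippocampus changed places with the scaling (−0.92 ± 0.20 with medians subtracted and 0.34 as deposited). Fn1 was higher in skeletal muscle (7.98 ± 0.29) than in heart (7.15 ± 0.02), with a heart minus skeletal muscle difference of −1.0 ± 0.13 (1.25e-05), and its order between hippocampus (7.64 ± 0.03) and heart turned with the scaling (−0.60 ± 0.13 with medians subtracted and 0.49 as deposited). Tnc was highest in hippocampus (4.27 ± 0.22), at 0.66 ± 0.19 above skeletal muscle (0.00451) and 1.17 ± 0.19 above heart (4.22e-05), which were 1.92 and 2.26 as deposited. Skeletal muscle (2.36 ± 0.16) and heart (2.01 ± 0.05) were both near or under the array median for Tnc and differed by −0.51 ± 0.19 with medians subtracted (0.0372), by −0.34 as deposited (0.170).

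**Figure D4:**
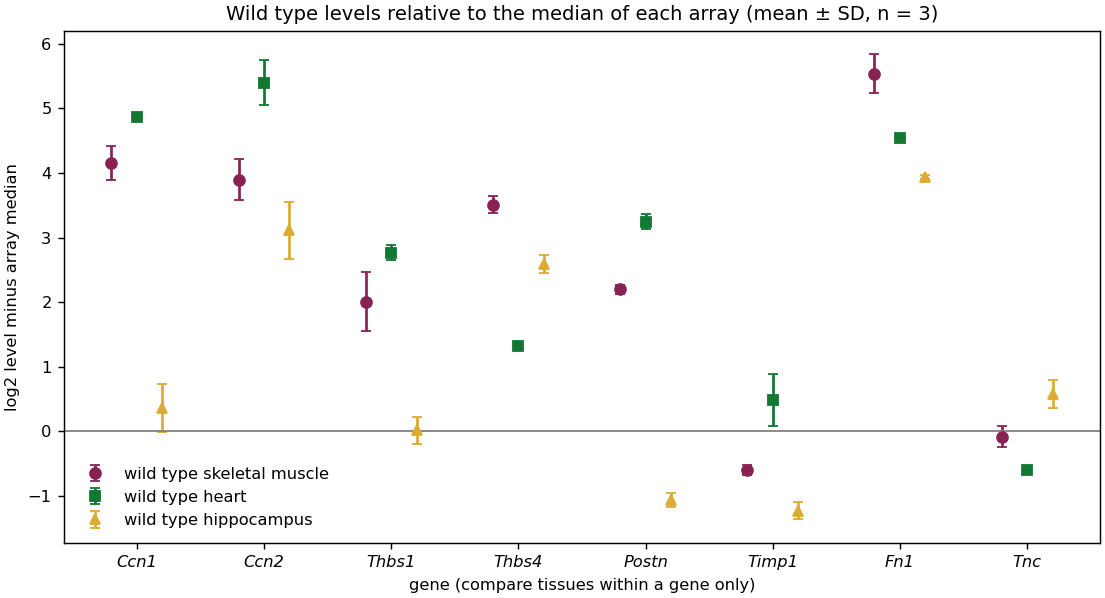
Wild type level minus the median of the array, on the log2 scale (vertical axis), of each gene (horizontal axis) in skeletal muscle (circles), heart (squares) and hippocampus (triangles), as mean with the SD of the 3 log2 levels. On this scale Ccn1, Ccn2, Thbs1, Postn and Timp1 were highest in heart, Thbs4 and Fn1 in skeletal muscle and Tnc in hippocampus, while as deposited Thbs4 was 0.34 higher in hippocampus than in skeletal muscle; levels of different genes are not comparable.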

How the data were processed

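The deposited values are log2 levels, 1 per probe set and array, which the authors made with RMA (R 2.10.0), according to the labels and per the submitters' processing notes. Whether 1 RMA run covered every tissue is not stated there. The platform annotation gave 1 symbol for 21153 of 35382 probe sets. The genes, lists and tests were chosen with earlier results of these data known. limma 3.58.1 (R 4.3.3) was fitted to all 18 arrays, giving every 1 of the 6 groups its own mean (12 residual degrees of freedom, 2.67 more from the prior), two-sided, with Benjamini-Hochberg adjustment over all probe sets. The SE of a gene therefore also reflects its spread in other tissues. The text named all listed genes, up to 4 genes of each list in a comparison by the smallest unadjusted p, and the 3 genes most like each called gene. List genes were read from their brightest probe set. Of 171 genes in 18 lists, 163 were measured. The procedure was tested on simulated data. Figures used matplotlib 3.10.9.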

Additional observations from a re-analysis of the deposited data

Results flagged for a closer look

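The genotype difference of Ccn1 differed between tissues in the interaction test of the fit to all 18 arrays. The F of its interaction of genotype and tissue was 17.8 (adjusted p = 0.00798), and the effect in hippocampus exceeded that in skeletal muscle by 1.10 and that in heart by 1.45 on the log2 scale. Ccn1 was lower in 3 of 3 transgenic arrays than in any wild type array in skeletal muscle and heart, and lay near the array median in hippocampus, where the groups overlapped.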

How the results depend on the processing

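In skeletal muscle 3 of the 8 genes were called, but 0 in a fit of the muscle arrays alone, 1 with the replicate block, 5 when probe sets of 1 gene were averaged, 0 at an adjusted p under 0.01 and 5 under 0.1, and 1 to 2 with 1 array left out. The 1 gene under the block was Ccn2 (adjusted p = 0.0459), not called without it, while Ccn1, Thbs1 and Postn did not pass under it (0.0780, 0.0665 and 0.0674). Each of the 8 genes had 1 probe set, so averaging left their own values unchanged and altered only the other rows of the fit and adjustment. Which part of that step moved the counts was not tested. In heart the count of 1 became 0 with only the heart arrays and was 1 to 2 with 1 array left out. The interaction count of 1 became 0 with the replicate block (Ccn1 at an adjusted p of 0.0679), 2 when probe sets were averaged, and was 1 to 2 with 1 array left out, the second gene being Thbs1, Thbs4 or Timp1. The tissue counts stayed within 1.5 times under the alternatives run. Same-numbered arrays of a tissue correlated at only −0.03 to 0.04 in their deviations. Each array was also set against the 3 arrays of the other genotype, and 9 of 18 correlated best with their own number. That count cannot exclude that the numbers pair the arrays. Of 44 calls on other named genes, 7 held with only the arrays of the tissue, 27 with the replicate block and 24 without any 1 array.

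Some signs turned with the scaling. With medians subtracted, hippocampus minus skeletal muscle was −0.79 for Ccn2, −0.92 for Thbs4 and −0.63 for Timp1, and hippocampus minus heart −0.60 for Fn1; after quantile normalization hippocampus minus skeletal muscle was −0.70 for Ccn2 and −0.94 for Thbs4, and hippocampus minus heart −0.40 for Fn1. Among uncalled genotype differences, leaving out 1 array gave −0.029 to 0.26 for Fn1 in skeletal muscle, −0.067 to 0.019 for Fn1, −0.30 to 0.011 for Thbs4 and −0.018 to 0.17 for Postn in heart, and −0.075 to 0.33 for Ccn2, −0.069 to 0.16 for Thbs1 and −0.093 to 0.11 for Tnc in hippocampus. The number of arrays and the dim signal of Timp1 and Tnc limit what could be called.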
